A study of Mus musculus with 6 samples.

Results

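The vacuolar ATPase (V-ATPase) genes and the genes of the Ragulator-Rag complex on the lysosome surface were followed in BMDM, mouse macrophages derived from bone marrow, which are phagocytes grown in culture from marrow precursors. Members were taken by gene symbol: every symbol starting with Atp6v0 or Atp6v1, together with Atp6ap1, Atp6ap2, Lamtor1 to Lamtor5 and Rraga to Rragd, without symbols marked as pseudogenes. The rule gave 34 of the 55291 genes in the table. It took in Atp6v1fnb, which is named for a neighbouring gene and is not a pump subunit. It missed Tcirg1, which encodes the a3 subunit under another symbol and is described beside the members. The libraries were 3 of untreated BMDM and 3 of BMDM pretreated with apoptotic cells (AC), all from poly(A) RNA. The sources used here do not give the strain, genotype or age of the mice, or what the apoptotic cells were, how many were added and when.

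The V-ATPase is a rotary proton pump that acidifies lysosomes and phagosomes. Its cytosolic V1 sector hydrolyses ATP, and its membrane-bound V0 sector carries protons across. Macrophages digest engulfed dying cells in compartments that this pump makes acidic. Ragulator, built from the Lamtor proteins, holds the Rag GTPases on the lysosome, where they bring in the growth kinase complex mTORC1 when amino acids are plentiful. The V-ATPase binds Ragulator and takes part in that signal.

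Depth lay between 19330350 and 32649089 reads on genes per library. Levels are in TPM, which is reads divided by exon length and scaled to a sum of 1000000 in each library. Macrophage markers were abundant in all libraries, with Cd68 between 3731 and 4592 TPM. Lyz2, the lysozyme gene, was low in untreated replicate 1 (83.7 TPM), against 9270 to 12451 TPM elsewhere, and the counts of calls, the members' differences with their median, and the subunit shares were recomputed without that library. Summed placental markers (14 genes) were 16.8, 35.6 and 0 TPM in untreated replicates 1, 2 and 3, and 32.6, 153 and 0.423 TPM in AC replicates 1, 2 and 3. Osteoclast markers, from another marrow-derived cell rich in this pump, summed to between 72.9 and 84.5 TPM in untreated and between 77.1 and 87.3 TPM in AC libraries. Most of this came from Acp5 (27.4 to 33.6 TPM), Ctsk (17.4 to 26.8 TPM) and Nfatc1 (16.7 to 27.8 TPM). Calcr, Ocstamp and Oscar, 3 of 9, were below 1 TPM in all libraries. Of 10 thymocyte and T cell markers, 9 stayed below 1 TPM in all libraries, and Cd3d and Cd8b1 were at 0. The exception was Cd4, at between 9.48 and 16.8 TPM. The labels do not say whether replicates are separate cultures or animals. The p-values therefore rest on the spread of these 6 libraries, part or all of which may be technical.

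Most pump and Ragulator genes were highly expressed, and no member passed the test between AC pretreated and untreated macrophages. Of the 34 members, 27 had at least 1 TPM in at least 3 libraries and were tested. By limma on log2(TPM + 1), 0 of 27 members were called in either direction at an adjusted p under 0.05, where 0% of all 12603 genes tested were called. At an unadjusted p under 0.05 there were 0 members, against 1.3% of all genes, and voom on the recovered reads called 0 members, with 0 at an unadjusted p under 0.05. The groups overlapped for all 27 tested members, while they did not overlap for 4.42% of all genes (0.936% with AC higher and 3.48% with AC lower). The median log2 difference, AC minus untreated, was -0.02 over the tested members and -0.07 over all genes. By direction 10 members were higher and 17 lower, and with median-of-ratios scaling between libraries 20 were higher and 7 lower, so the split by direction depended on the scaling.

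The intervals describe how precisely this fit placed the differences, given the spread of these 6 libraries. As part or all of that spread may be technical, they set no firm limit on the effect of AC. The 95% interval of the difference lay inside 2-fold for 26 of 27 tested members (96.3%), the exception being Atp6v0d2. It lay inside 1.5-fold for 19 members (70.4%). Among 9502 genes reaching 5 TPM in the mean of either group, these shares were 93.5% and 58.0%, and among the 26 members at that level 96.2% and 73.1%. On this scale, log2(TPM + 1), the change of low genes is understated. Rragb, counted inside 2-fold, is such a gene, at between 0.637 and 2.72 TPM. Its difference was -0.08 here and -0.23 with a pseudocount of 0.1 TPM, so its place inside 2-fold does not hold for TPM itself. RNA per cell and the number of cells cannot be told apart in bulk samples.

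**Figure D1:**
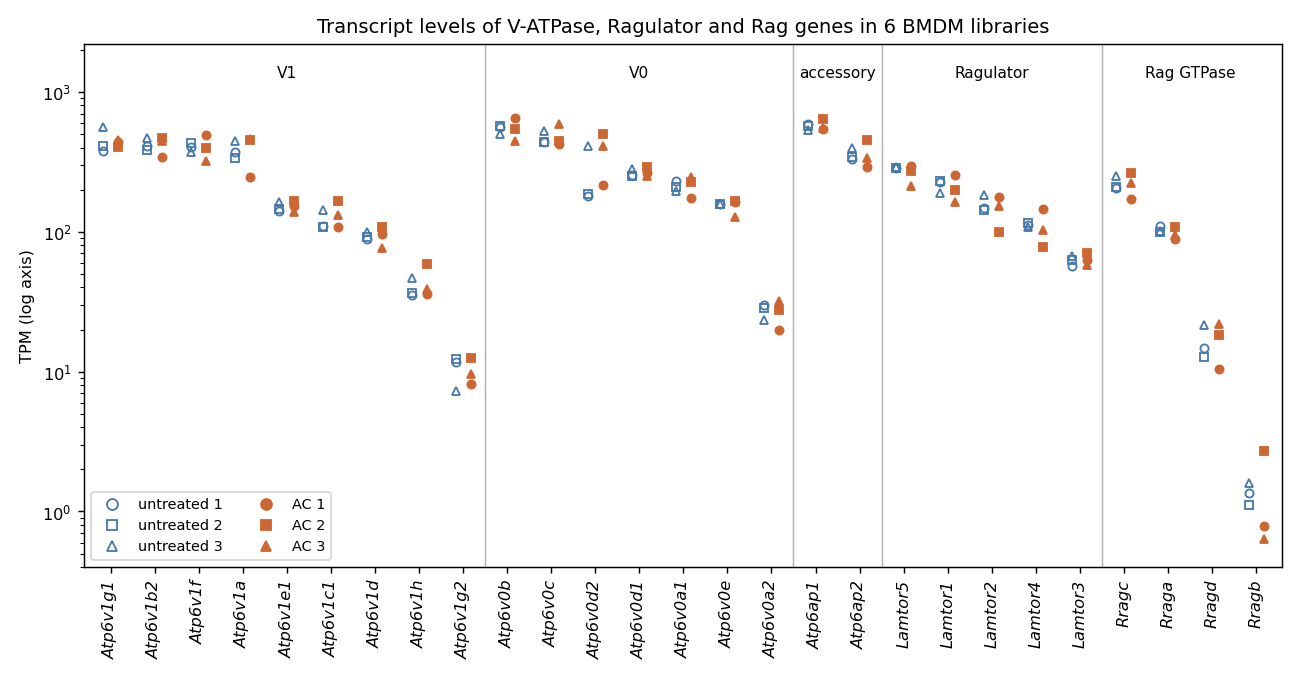
Level of each tested member in TPM on a log axis, by part of the complex, with 1 point per library (open blue, untreated; filled orange, AC; circle, square and triangle for replicates 1, 2 and 3). The groups overlap for each of the 27 members, and Atp6v0d2 has its AC replicate 1 point beside untreated replicates 1 and 2.

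**Figure D2:**
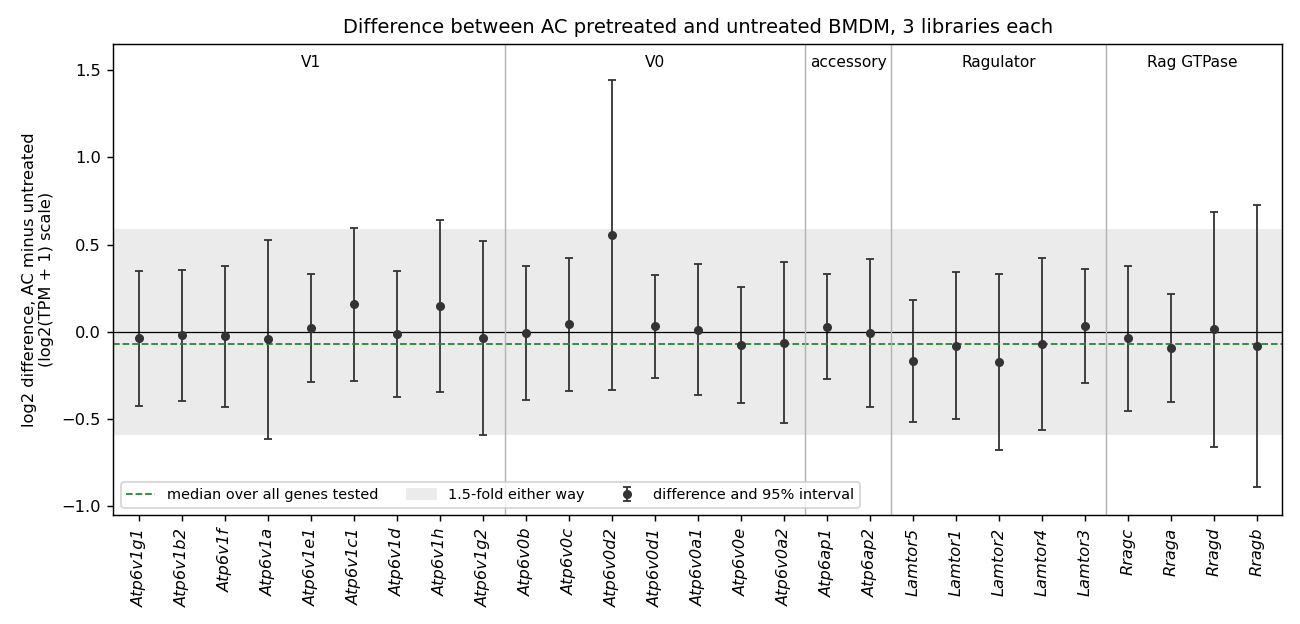
Log2 difference between AC pretreated and untreated BMDM (points) with its 95% interval (bars), n = 3 libraries per group, by part of the complex. The dashed line is the median over all genes (-0.07), and the interval of Atp6v0d2 alone passes beyond 2-fold.

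In the V1 sector, 9 of 13 members were tested, and their differences lay close to 0 against the spread between libraries. Atp6v1a (ENSMUSG00000052459.13, chr16:44085402-44139705 on the minus strand of mm10) encodes the A subunit, which carries the catalytic site for ATP. It stood at 370, 338 and 447 TPM in untreated replicates 1, 2 and 3 and at 246, 453 and 457 TPM in AC replicates 1, 2 and 3. AC replicate 1 was the lowest library and the other AC libraries were the highest, and the difference was -0.04 ± 0.25 (SE). Atp6v1b2 encodes the B2 subunit, which alternates with A in the catalytic head. It stood at 413, 381 and 468 TPM in untreated and at 340, 468 and 445 TPM in AC libraries. The order of libraries was much as for Atp6v1a, with AC replicate 1 lowest, and the difference was -0.02 ± 0.16.

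The stalk genes of V1 moved little. Atp6v1d and Atp6v1f encode the D and F subunits of the central rotor. Atp6v1d was at 89.4, 92.4 and 99.5 TPM in untreated and at 96.5, 108 and 76.7 TPM in AC libraries. For Atp6v1f the values were 406, 435 and 371 TPM, and 490, 399 and 318 TPM. AC replicate 3 was lowest for both rotor genes, while AC replicate 1 was the highest library for Atp6v1f. Their differences were -0.01 ± 0.16 and -0.03 ± 0.18. Atp6v1e1 and Atp6v1g1 encode the E1 and G1 subunits of the peripheral stalks. Atp6v1e1 was among the steadiest members, at 140, 146 and 163 TPM and at 153, 165 and 139 TPM. Atp6v1g1 was at 380, 410 and 557 TPM in untreated and at 438, 404 and 453 TPM in AC libraries, with untreated replicate 3 standing above the rest. Their differences were 0.02 ± 0.13 and -0.04 ± 0.17.

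Atp6v1c1 and Atp6v1h had the largest positive differences of the V1 genes, and neither was larger than the spread. Atp6v1c1 encodes the C1 subunit, which joins the stalks to V0 and lets go when the pump comes apart. It stood at 109, 108 and 143 TPM in untreated and at 108, 165 and 132 TPM in AC libraries, a difference of 0.16 ± 0.19 that ranged from 0.00087 to 0.31 on leaving out 1 library. Atp6v1h encodes the regulatory H subunit. It was at 35.2, 36.4 and 47.0 TPM in untreated and at 35.7, 58.9 and 39.2 TPM in AC libraries, and its difference of 0.15 ± 0.22 rested on AC replicate 2, without which it was -0.07. The G2 gene Atp6v1g2, which is known mainly from neurons, was low at 11.7, 12.4 and 7.30 TPM and at 8.17, 12.4 and 9.62 TPM. Its span overlaps Nfkbil1 on the other strand, so its reads are uncertain. Other tested members overlap annotated genes too. Rragc, Atp6v0a1 and Atp6v1e1 do so on the same strand. Atp6v0b, Atp6v1b2, Lamtor1, Atp6v1h, Atp6v0a2 and Rragd do so on the other strand only. How far exons are shared was not examined.

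In the V0 sector, 7 of 9 members were tested, and Atp6v0d2 (ENSMUSG00000028238.6, chr4:19876841-19922605 on the minus strand of mm10) had the largest difference of all members. Atp6v0d2 encodes the d2 subunit, the form of the central stalk socket known from osteoclasts and macrophages. It stood at 181, 187 and 412 TPM in untreated replicates 1, 2 and 3 and at 217, 504 and 408 TPM in AC replicates 1, 2 and 3. The libraries fell into a low set of 3 (untreated replicates 1 and 2 with AC replicate 1) and a high set of 3 (untreated replicate 3 with AC replicates 2 and 3), so that each group held both levels. The group means stood at 260 ± 132 TPM in untreated and at 376 ± 146 TPM in AC libraries (SD, n = 3 each). The log2 difference was 0.56 ± 0.39 with a 95% interval from -0.33 to 1.45, and it did not pass by limma (adjusted p = 1.0, unadjusted p = 0.187).

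That difference depended on which libraries were compared. It was 0.84 among the 4 libraries numbered 1 and 2, in which placental markers summed to 16.8 TPM or more, and -0.01 between the libraries numbered 3. Leaving out 1 library gave 0.35 without untreated replicate 1, 0.38 without untreated replicate 2, 0.94 without untreated replicate 3, 0.91 without AC replicate 1, 0.31 without AC replicate 2 and 0.46 without AC replicate 3. With limma's sample quality weights the gene passed, at a log2 difference of 1.27 (adjusted p = 0.0376, against a range from 0.0376 to 1.0 over 18 alternatives). In that fit untreated replicate 2 had a weight of 7.24 and AC replicate 2 of 2.98, while AC replicate 1 had 0.181. That fit gave 11 of 27 members, and 3475 of all genes, an unadjusted p under 0.05. Placental markers were high in AC replicate 2 and at or near 0 in untreated replicate 3 and AC replicate 3, all of which were high in Atp6v0d2. The part of those markers in this gene's level was not tested.

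The other V0 genes differed by less than the spread between libraries. Atp6v0d1 encodes the widely expressed d1 form of the same subunit. It was steady at 254, 252 and 279 TPM in untreated and at 262, 292 and 249 TPM in AC libraries (0.03 ± 0.13). Atp6v0c and Atp6v0b encode proteolipids of the rotating ring that carries the protons. Atp6v0c was at 438, 440 and 524 TPM and at 423, 443 and 590 TPM (0.04 ± 0.17). Its reads can be shared with the copy Atp6v0c-ps2, which was listed at between 12.5 and 27.5 TPM. Atp6v0b was at 560, 572 and 497 TPM and at 654, 544 and 443 TPM, and both the highest and the lowest library were AC ones (-0.01 ± 0.17). Atp6v0e encodes the small e1 subunit, at 157, 159 and 159 TPM in untreated and at 162, 165 and 127 TPM in AC libraries (-0.08 ± 0.14). AC replicate 3 stood below the other libraries, which lay between 157 and 165 TPM.

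Subunit a shapes the channel through which protons pass and sends the pump to its membrane. Atp6v0a1 was at 230, 208 and 196 TPM in untreated and at 173, 225 and 246 TPM in AC libraries (0.01 ± 0.16). Atp6v0a2 was at 29.9, 28.6 and 23.5 TPM and at 19.9, 27.7 and 31.9 TPM (-0.06 ± 0.20). For both genes AC replicate 1 was the lowest library and AC replicate 3 the highest. Tcirg1, outside the symbol rule, encodes a3, the form known from the ruffled border of osteoclasts and from lysosomes. It was at 706, 665 and 463 TPM in untreated and at 603, 701 and 657 TPM in AC libraries (0.12 ± 0.18), with untreated replicate 3 lowest.

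Where a subunit has alternative genes, mostly a single gene supplied nearly all of the transcripts. The lowest share of Atp6v1b2 in subunit B was 99.989%, and Atp6v1b1, the kidney form, gave 2 reads over the 6 libraries together. The lowest share of Atp6v1c1 in subunit C was 99.8%, and the 4 reads of Atp6v1c2 were all in untreated replicate 3. Atp6v0e2 had 32 reads in all and stayed below 1 TPM. Atp6v1e2, Atp6v0a4, Atp6v1g3 and Atp6v1fnb were at 0 in every library. A count of 0 allows up to 3 reads, which in the shallowest library is 0.0945 TPM for Atp6v0a4 and 0.689 TPM for the short Atp6v1fnb (counting error only). The tested members rested on many more reads: the 22 members above 50 TPM in all libraries had at least 697 reads in each.

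Subunits a and d were mixed. Of subunit a transcripts, Tcirg1 gave 71.6 ± 3.25% in untreated and 73.2 ± 2.77% in AC libraries. Atp6v0a1 gave 25.2 ± 3.08% and 23.9 ± 2.32%. Atp6v0d2 gave 41.5, 42.7 and 59.7% of subunit d transcripts in untreated and 45.3, 63.3 and 62.2% in AC libraries. The d2 share thus passed that of d1 in 3 libraries and fell short of it in 3, and the difference of 8.95 percentage points was smaller than the SD within groups (10.2 and 10.1). By exact 2-sided permutation tests, p was 0.2 for the d2 share and between 0.4 and 0.9 for the other 4 shares tested, with an adjusted p of 0.75 for the d2 share over 5 tests. Here 3 libraries against 3 cannot go below 0.1.

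**Figure D3:**
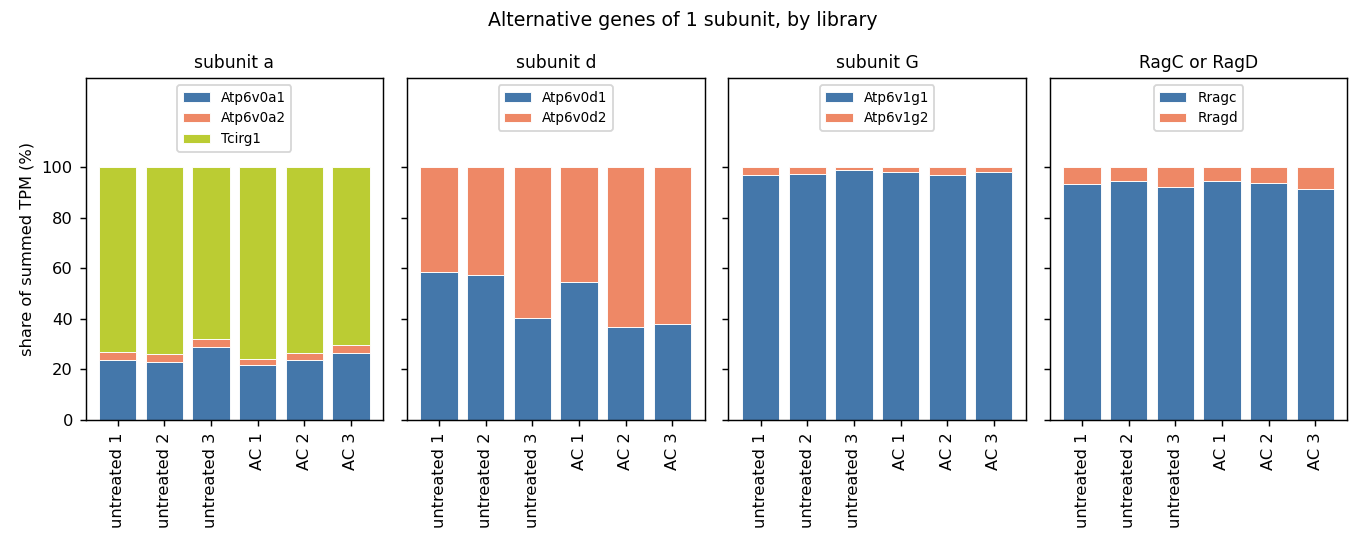
Share of the summed TPM of a subunit (%) given by each of its alternative genes, 1 bar per library. The d2 share lies between 41.5 and 45.3% in untreated replicates 1 and 2 and AC replicate 1 and between 59.7 and 63.3% in the other libraries, while Tcirg1 gives 67.8 to 75.8% of subunit a throughout.

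The accessory genes were among the most abundant members. Atp6ap1 encodes an accessory glycoprotein that helps V0 assemble. It averaged 573 ± 39.3 TPM over the 6 libraries (SD, n = 6), the highest mean of the members, and was followed by Atp6v0b at 545 ± 71.5 and Atp6v0c at 476 ± 66.4 TPM. Neighbours in that order did not differ beyond their spread. Atp6ap1 was at 590, 573 and 538 TPM in untreated and at 544, 643 and 552 TPM in AC libraries (0.03 ± 0.13). Atp6ap2 encodes the (pro)renin receptor, a second accessory protein of the pump. It was at 332, 343 and 397 TPM and at 288, 454 and 338 TPM, with both its lowest and its highest library in the AC group (-0.01 ± 0.18).

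Levels of different genes depend on the length by which reads were divided. The deposited values use all exons of a gene merged, which was between 1.0 and 4.76 times the length of the main transcript for the tested members. Atp6v1h had the largest ratio, with 9746 bases of merged exons against 2049 bases. Its mean of 42.0 TPM would be 199.99 if all its reads were set against the main transcript and the library sums were left as they are. By that measure Atp6v0c (1362) and Atp6v0b (1118) led the members in place of Atp6ap1 (793). The choice changes the order of genes and leaves differences between libraries as they are, apart from the added pseudocount.

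All 5 Ragulator genes were tested, and the AC libraries disagreed on them. Lamtor1 (ENSMUSG00000030842.12, chr7:101905904-101926675 on the plus strand of mm10) encodes the lipid-anchored scaffold that wraps around the other subunits and fixes them to the lysosome. It was at 226, 229 and 190 TPM in untreated and at 256, 199 and 163 TPM in AC libraries, a difference of -0.08 ± 0.18. Lamtor2 and Lamtor3 encode a pair of roadblock-fold subunits that bind each other. Lamtor2 was at 147, 144 and 183 TPM and at 176, 99.8 and 154 TPM (-0.17 ± 0.22). Lamtor3 was at 56.6, 62.8 and 66.9 TPM and at 62.7, 70.9 and 57.6 TPM (0.03 ± 0.14). AC replicate 2 was thus the lowest library for Lamtor2 and the highest for its partner.

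Lamtor4 and Lamtor5 encode the other roadblock pair. Lamtor4 was at 111, 115 and 107 TPM in untreated and at 147, 78.4 and 103 TPM in AC libraries (-0.07 ± 0.22). Lamtor5 was at 288, 287 and 292 TPM and at 294, 274 and 211 TPM (-0.17 ± 0.15). For both genes the untreated libraries lay close together and the AC libraries spread more widely. Summed over the 5 genes, Ragulator stood at 835 ± 5.31 TPM in untreated and at 782 ± 134 TPM in AC libraries (SD, n = 3 each), with 935 TPM in AC replicate 1, 722 in replicate 2 and 689 in replicate 3.

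The Rag GTPases work as heterodimers of RagA or RagB with RagC or RagD, and in these cells Rraga and Rragc supplied most of the transcripts. Rraga was at 110, 99.0 and 101.3 TPM in untreated and at 88.7, 108 and 94.2 TPM in AC libraries (-0.09 ± 0.13). Rragb stayed between 0.637 and 2.72 TPM, on 140 reads in all. Rraga thus made up at least 97.5% of the summed TPM of the 2 genes in every library. Rragc was at 207, 211 and 252 TPM and at 172, 265 and 224 TPM (-0.04 ± 0.18). Rragd was at 14.7, 12.7 and 21.5 TPM and at 10.4, 18.2 and 21.7 TPM (0.01 ± 0.29). AC replicate 1 was the lowest library for Rraga, Rragc and Rragd, and Rragd gave between 5.68 and 8.85% of the RagC and RagD transcripts.

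Like the genes as a whole, the members varied more among the AC libraries than among the untreated ones. The SD of log2(TPM + 1) was larger in AC than in untreated libraries for 24 of 27 members (88.9%), against 73.3% of all genes. Its median was 0.15 in untreated and 0.28 in AC libraries over the members, close to the 0.16 and 0.29 over all genes. AC replicate 2 was the highest library for 14 of 27 members, and AC replicates 1 and 3 were the lowest for 10 and 9. The matching shares over all genes were not computed, so these counts cannot be read as particular to the members. For 8 members (29.6%) the 3 highest libraries were untreated replicate 3 with AC replicates 2 and 3, the order first seen in Atp6v0d2. These were Atp6v0c, Atp6v0d2, Atp6v1a, Atp6v1b2, Atp6v1c1, Atp6v1h, Rragc and Rragd. Of all genes tested, 12.5% had those 3 libraries highest, and of the 60 tested genes that act with the members (listed below), 16.7%. This order was picked out after the values were seen, with Atp6v0d2 itself counted, and is given without a test. The shares were not matched for exon length, with which levels in AC replicates 1 and 3 varied (below). Merged exons came to 9746 bases for Atp6v1h, 6044 for Atp6v1a, 5601 for Atp6v1c1, 5305 for Atp6v1b2 and 5173 for Rragd. They came to 3384 bases for Atp6v0c, 3341 for Rragc and 2716 for Atp6v0d2. The part of length in this order was not tested.

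Levels in AC replicates 1 and 3 also varied with exon length, in opposite directions. Each gene's deviations from its mean over the 6 libraries cancel out, so a relation in any library is balanced by opposite ones among the others. The opposition is therefore partly fixed by this measure. In AC replicate 1 the 7 members with under 2000 bases of merged exons stood at a median of 0.11 above their mean over the 6 libraries, on the log2 scale, and the 10 members with at least 4000 bases at -0.26. In AC replicate 3 these medians were -0.08 and 0.08. Protein-coding genes showed the same contrast, with 0.17 and -0.33 in AC replicate 1 and -0.19 and 0.16 in AC replicate 3. Across genes, which are not independent replicates, Pearson's r between that deviation and log2 length in AC replicate 1 was -0.58 over the 27 members and -0.59 over 10484 coding genes. It was 0.40 and 0.52 in AC replicate 3. In AC replicate 2 it was 0.44 over the members and 0.14 over the coding genes. In untreated replicates 1, 2 and 3 it was -0.13, -0.27 and 0.03 over the members and 0.15, -0.20 and 0.03 over the coding genes, so the coding genes of AC replicate 2 showed no stronger relation than those of untreated replicates 1 and 2. With the length trend removed from each library, an alternative chosen after seeing the data, the median SD within groups went from 0.23 to 0.22 over the members and from 0.25 to 0.20 over all genes with a length. The difference of Atp6v0d2 was then 0.62, and 0 members passed by limma, with 0 at an unadjusted p under 0.05.

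**Figure D4:**
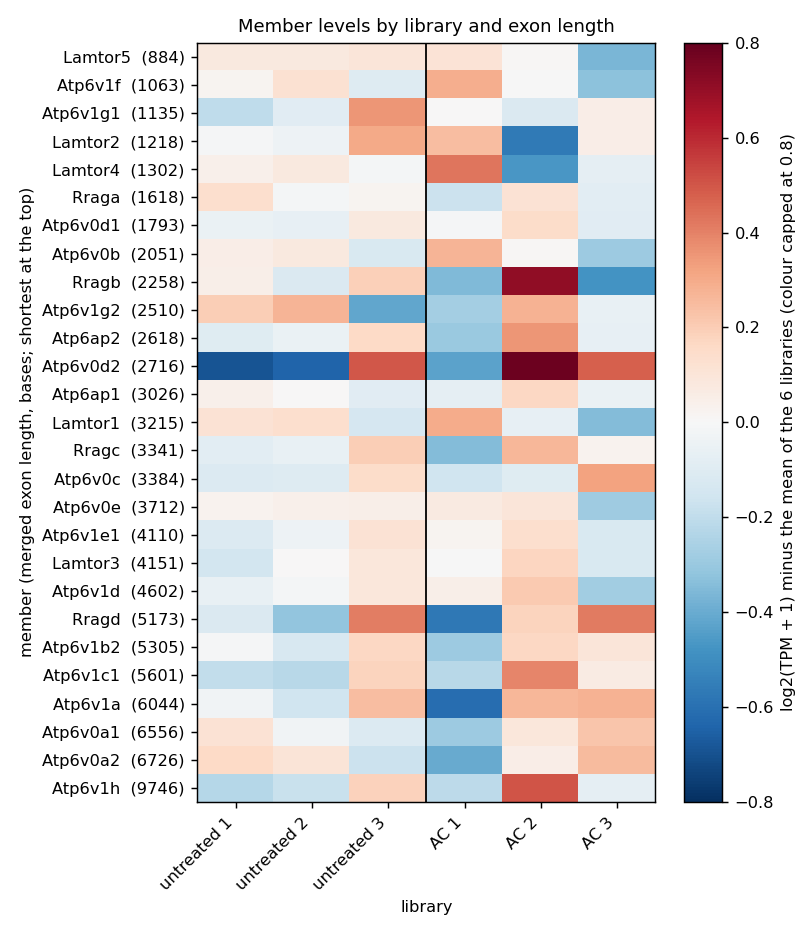
Each tested member's log2(TPM + 1) minus its mean over the 6 libraries (colour), by library, with the shortest merged exons at the top. Red above the mean and blue below it: AC replicate 1 is mostly red at the top and blue at the bottom, and Atp6v0d2 is blue in 3 libraries and red in 3.

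The promoters of the members were searched for the E-box CACGTG, the core of the site through which the lysosomal factors TFEB and TFE3 are known to bind, because the Rag GTPases control where these factors sit. RefSeq windows of 300 bases on GRCm38.p6, from 250 bases before to 50 after the start site, were found for 27 of 34 members. These are not the same 27 as the tested members. Atp6v0d2, Atp6v0a2, Atp6v1b2, Atp6v1c1, Atp6v1g1, Atp6v1h and Lamtor3 were tested but had no window, so their promoters were not searched. The E-box, a palindrome that reads the same on both strands, was present in 8 members (29.6%) and in 8.09% of the 27025 genes with a window. The longer TCACGTGA, which contains it, was present in 3 members (11.1%), Atp6v0d1, Atp6v0e and Atp6v1a, and in 1.12% of all genes. The same letters with G before and C after them were found in 0 members and in 0.37% of genes. The genes with a window were not matched to the members for level or base composition, so the contrast in shares was not tested. A match describes these letters alone and shows neither binding nor control.

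A few of these stretches are shown to let the core and its flanks be compared across the catalytic subunit, the proton ring, the socket, Ragulator and a Rag GTPase. They run 5′ to 3′ on the strand of the gene, with the E-box in capitals, widened to TCACGTGA where those letters stand. They lie at chr16:44139360-44139415 on the minus strand (Atp6v1a), chr4:117887320-117887390 on the minus strand (Atp6v0b), chr8:105566055-105566092 on the minus strand (Atp6v0d1), chr7:101905744-101905799 on the plus strand (Lamtor1), chr5:138255337-138255408 on the plus strand (Lamtor4) and chr4:123917296-123917351 on the plus strand (Rragc).
Atp6v1a: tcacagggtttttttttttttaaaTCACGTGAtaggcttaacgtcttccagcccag
Atp6v0b: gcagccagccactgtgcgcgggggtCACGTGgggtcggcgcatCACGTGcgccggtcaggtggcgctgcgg
Atp6v0d1: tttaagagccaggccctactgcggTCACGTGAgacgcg
Lamtor1: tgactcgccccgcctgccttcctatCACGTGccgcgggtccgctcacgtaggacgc
Lamtor4: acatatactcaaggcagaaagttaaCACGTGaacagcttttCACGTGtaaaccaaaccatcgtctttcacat
Rragc: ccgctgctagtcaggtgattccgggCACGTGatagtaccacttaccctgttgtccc
Of the stretches shown, those of Atp6v0b and Lamtor4 each hold 2 cores close together. The window of Rragb, not shown, holds 3 cores, which begin at -127, -36 and -3 bases from the start site.

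Genes that act with the members gave no calls either. By limma, 0 of 12 tested V-ATPase genes outside the symbol rule (a3, assembly factors, the RAVE complex and TLDc proteins) were called, with a median difference of 0.03. None of the 12 had an unadjusted p under 0.05. Vma21, which encodes an assembly chaperone of V0, had a mean of 38.5 ± 10.49 TPM in untreated libraries and of 41.2 ± 11.4 TPM with AC, and Dmxl2, a RAVE subunit gene, 4.06 ± 0.986 and 4.77 ± 2.15 TPM. The groups did not overlap for Ccdc115, an assembly factor gene named here after its values were seen, at 62.0, 60.7 and 71.2 TPM in untreated and at 59.9, 49.2 and 55.6 TPM in AC libraries (-0.23 ± 0.14). It was 1 of the 12 genes, and the other related lists held 0 such genes. Over all genes tested the groups did not overlap for 4.42%, with AC lower for 3.48%.

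Of 23 genes that pass nutrient signals to the Rag GTPases, 0 were called and 0 had an unadjusted p under 0.05 by limma, with 7 higher, 16 lower and a median of -0.06. Flcn, which encodes the folliculin activator of RagC and RagD, averaged 96.7 ± 23.4 and 76.4 ± 11.3 TPM (-0.32 ± 0.21). Nprl2, a subunit gene of the GATOR1 complex that switches RagA off, averaged 22.3 ± 2.58 and 24.8 ± 6.05 TPM. Slc38a9, which encodes a lysosomal arginine sensor, averaged 7.62 ± 0.285 and 7.88 ± 1.35 TPM. For each of these genes the groups overlapped.

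Among mTORC1, Rheb and TSC genes, 0 of 9 were called by limma, with 8 lower and a median of -0.11, and 0 had an unadjusted p under 0.05. Mtor, the kinase gene, averaged 12.8 ± 2.502 and 11.2 ± 3.50 TPM, and Rptor, which encodes its Rag-binding partner, 17.1 ± 3.27 and 15.6 ± 4.51 TPM. The MiT/TFE factor list had 0 of 4 called, with Tfeb at 28.2 ± 3.95 and 27.1 ± 2.17 TPM and Tfe3 at 46.6 ± 4.71 and 43.6 ± 5.49 TPM. In the list of BORC and Arl8 genes, which position lysosomes, 0 of 12 were called and the median was -0.09. Neither list held a gene with an unadjusted p under 0.05. Lower means were the more common direction over all genes too, whose median was -0.07.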

How the data were processed

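The 6 BMDM libraries were made from poly(A) RNA and read on an Illumina instrument from both ends, per the labels' protocols. Tools named in the submitters' processing notes are STAR 2.7.10a, Subread and featureCounts 2.0.3, with the build mm10 and no role or order. The sources used here do not give the annotation, the strand setting or the treatment of shared reads, so overlapping genes are uncertain.

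The authors deposited 1 table of a signal per gene and library, named as TPM, whose columns sum to between 54732 and 92831. Times each gene's merged exon length in GENCODE mouse release 21 (53180 symbols matched) and divided by 8.57, it gave whole reads in all libraries for 23473 of 23829 genes (98.5%, tolerance 0.02 reads, against 4% per value by chance), including all 30 members above 0. Each library was rescaled to 1000000, and the test written for values in TPM was kept. Of the 6 columns 0 were unused, and 0 rows named no gene.

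Genes that reached 1 TPM in 3 or more libraries entered the test by limma 3.58.1 (R 4.3.3; eBayes with trend) on log2(TPM + 1), AC minus untreated, 2-sided, with Benjamini-Hochberg adjustment over all genes at a threshold of 0.05. The script was tested on simulated counts, with a spread between libraries set in advance. It recovered 5.67% of 335 planted 1.5-fold changes and 61.8% of 335 planted 2-fold changes. Of 330 planted 4-fold changes it recovered 99.4%. The spread was set alike for every gene, so these shares do not hold for genes that vary more. The SD within groups was 0.65 for Atp6v0d2, against a median of 0.23 over the tested members. A count of 0 calls therefore does not exclude changes of 2-fold or less, or larger ones in genes that vary more. Members, lists and named genes were chosen with earlier results of these data known. Values in every library were given for members reaching 5 TPM, and 10 related genes were named by a fixed list. Lists of neutrophil, B cell, fibroblast, epithelial and erythroid markers were also summed: their highest sums were 48.5, 26.5, 1.39, 4.70 and 17.5 TPM. Tables, tests of shares and figures used scipy 1.17.1, matplotlib 3.10.9, numpy 2.4.6 and pandas 2.3.3 in Python 3.11.15. Alternatives were other pseudocounts, filters, scalings, variance models and weights, voom, a replicate block, subsets of libraries and, chosen after seeing the data, removal of the length trend and division by main transcript length (the longest tagged APPRIS principal).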

Additional observations from a re-analysis of the deposited data

How the results depend on the processing

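No member passed under any of the alternatives that give a test, apart from Atp6v0d2 with sample quality weights, where 1 member was called and the median over members was 0.13. Over all genes 0 were called in the reported fit, 276 with those weights, 16 with the values as deposited (scaled by 1 common factor), 1 with no variance trend, and 0 in each other fit. The median over members was -0.16 between the 2 libraries numbered 3. Of 350 member values under alternatives other than leaving out a library, 62 had the other sign, among them 1 of Atp6v0d2. With median-of-ratios scaling these were Atp6ap2 0.060, Atp6v0a2 0.0038, Atp6v0b 0.064, Atp6v1a 0.026, Atp6v1b2 0.049, Atp6v1d 0.055, Atp6v1f 0.043, Atp6v1g1 0.032, Atp6v1g2 0.028, Rragc 0.034. With the length trend removed they were Atp6ap2 0.054, Atp6v0a2 0.011, Atp6v0b 0.051, Atp6v1a 0.031, Atp6v1b2 0.056, Atp6v1d 0.062, Atp6v1f 0.025, Atp6v1g1 0.015, Atp6v1g2 0.027, Rragc 0.034. With the values as deposited they were Atp6ap1 -0.040, Atp6v0a1 -0.056, Atp6v0c -0.026, Atp6v0d1 -0.037, Atp6v1e1 -0.046, Lamtor3 -0.034, Rragd -0.052. With voom they were Atp6ap2 0.032, Atp6v0b 0.036, Atp6v1b2 0.021, Atp6v1d 0.028, Atp6v1f 0.015, Atp6v1g1 0.0049, Rragc 0.0058. With sample quality weights they were Atp6ap2 0.32, Atp6v0e 0.016, Atp6v1a 0.34, Atp6v1b2 0.23, Atp6v1d 0.16, Rraga 0.069, Rragb 0.59, Rragc 0.26. Among the 4 libraries numbered 1 and 2 they were Atp6ap2 0.10, Atp6v0a1 -0.14, Atp6v0b 0.075, Atp6v0c -0.021, Atp6v0e 0.051, Atp6v1b2 0.0065, Atp6v1d 0.17, Atp6v1f 0.073, Atp6v1g1 0.093, Rragb 0.21, Rragc 0.032, Tcirg1 -0.074. Between the 2 libraries numbered 3 they were Atp6v0a2 0.43, Atp6v0d1 -0.16, Atp6v0d2 -0.014, Atp6v1a 0.033, Atp6v1c1 -0.11, Atp6v1e1 -0.24, Atp6v1g2 0.36, Atp6v1h -0.25, Lamtor3 -0.21, and the share of Atp6v1g2 differed by 0.79 percentage points. Leaving out 1 library turned the sign of 23 of 27 members and called 0 genes and 0 members in all 6 cases, and the median over members ranged from -0.065 to 0.073. Ranges of the log2 difference were -0.047 to 0.073 for Atp6ap1, -0.19 to 0.14 for Atp6ap2, -0.093 to 0.16 for Atp6v0a1, -0.20 to 0.12 for Atp6v0a2, -0.14 to 0.14 for Atp6v0b, -0.11 to 0.13 for Atp6v0c, -0.033 to 0.084 for Atp6v0d1, 0.31 to 0.94 for Atp6v0d2, -0.14 to 0.047 for Atp6v0e, -0.19 to 0.25 for Atp6v1a, -0.11 to 0.12 for Atp6v1b2, 0.00087 to 0.31 for Atp6v1c1, -0.12 to 0.12 for Atp6v1d, -0.038 to 0.089 for Atp6v1e1, -0.18 to 0.13 for Atp6v1f, -0.15 to 0.13 for Atp6v1g1, -0.25 to 0.092 for Atp6v1g2, -0.065 to 0.29 for Atp6v1h, -0.25 to 0.075 for Lamtor1, -0.34 to 0.067 for Lamtor2, -0.044 to 0.10 for Lamtor3, -0.30 to 0.14 for Lamtor4, -0.26 to -0.025 for Lamtor5, -0.17 to -0.032 for Rraga, -0.46 to 0.14 for Rragb, -0.18 to 0.13 for Rragc, -0.19 to 0.30 for Rragd, -0.069 to 0.23 for Tcirg1. Share differences ranged, in percentage points, from -2.52 to 0.47 for Atp6v0a1, -0.54 to -0.085 for Atp6v0a2, 5.74 to 14.81 for Atp6v0d2, -0.66 to 0.19 for Atp6v1g2, -0.27 to 3.06 for Tcirg1.

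Same-numbered libraries had deviations correlated at -0.060, 0.0098 and 0.17 for replicates 1, 2 and 3. Between unlike numbers the correlations ranged from -0.338 (untreated replicate 2 with AC replicate 3) to 0.335 (untreated replicate 2 with AC replicate 1). As not every same-numbered pair was over 0.1, the numbers were not taken to pair the libraries. Placental markers were nevertheless at or near 0 in both libraries numbered 3 and at 16.8 TPM or more in the other 4. The replicate block called 0 genes (225 at an unadjusted p under 0.05, against 164 without it) and 0 members. Depth limited the lowest members: Rragb rested on 140 reads, and Atp6v1b1, Atp6v1c2 and Atp6v0e2 on 2, 4 and 32. The tested members had a median SE of 0.18, with 3 libraries per group.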
